A study of Mus musculus with 12 samples.

Results

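The guanylate-binding protein cluster of mouse chromosome 3 was examined as a window of 200 kb in the mm9 build, which holds Gbp5, Gbp7, Gbp3 and Gbp2. Every deposited ATAC-seq peak with at least 1 bp in this window was taken, and overlapping peaks were chained into regions. The window held 224 of the 886143 peaks of the 12 libraries and 27 of the 115231 regions they formed, the first and last of which span chr3:142132742-142309246. ATAC-seq uses the Tn5 transposase to place sequencing adapters in open DNA, so a peak marks accessible chromatin. The cells were macrophages grown from the bone marrow of female C57BL/6 mice for 9 days in 20% L929 growth supplement. They were knockout (KO) for the long noncoding RNA lincRNA-EPS or wild type (WT), and had received LPS, a component of the outer membrane of Gram-negative bacteria, at 100 ng/ml for 0, 2 or 6 h. Each of the 6 groups had 2 libraries, made from 50000 cells per reaction. The labels do not say whether these came from separate animals, so p-values measure the spread between libraries, which may be technical.

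The guanylate-binding proteins are large GTPases made by cells exposed to interferon. They assemble on bacteria, on the vacuoles of parasites and on bacterial lipopolysaccharide in the cytosol, and they help to activate caspase-11 and inflammasomes. Gbp5 is known for its part in the NLRP3 inflammasome, and Gbp2 for its recruitment to vacuoles of intracellular pathogens. Gbp3 and Gbp7 are members of the same GTPase family. In macrophages, LPS acts through Toll-like receptor 4, which turns on NF-kB and the interferon regulatory factors, and the type I interferon then secreted acts back on the cells. Interferon signals reach promoters of genes such as the Gbp genes through gamma activated sites and interferon-stimulated response elements. By its title, the study regards lincRNA-EPS as a brake on inflammatory genes. The comparisons below are of the times of LPS and of KO with WT.

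The promoters of the 4 genes are shown with their matches to motifs of the interferon response and to other motifs. They are RefSeq sequences of the GRCm38.p6 build, all on the + strand, from 250 bases before to 50 bases after the start of the gene. Capitals mark matches, on either strand, to any of 6 motifs. These were TTCNNNGAA (gamma activated site), GAAANNGAA (core of the interferon-stimulated response element), GGGANTTCC (NF-kB) and GAGGAAGT (PU.1). The remaining motifs were that of AP-1, with the letters TGACTCA, and the TATA box, for which the letters TATAAA were searched.
Gbp5, chr3:142496684-142496983: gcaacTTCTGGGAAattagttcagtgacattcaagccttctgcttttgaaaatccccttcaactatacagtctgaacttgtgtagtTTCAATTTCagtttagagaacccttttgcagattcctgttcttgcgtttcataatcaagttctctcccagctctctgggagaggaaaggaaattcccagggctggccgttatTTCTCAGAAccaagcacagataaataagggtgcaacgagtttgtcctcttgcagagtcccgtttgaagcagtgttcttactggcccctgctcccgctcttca
Gbp7, chr3:142530086-142530385: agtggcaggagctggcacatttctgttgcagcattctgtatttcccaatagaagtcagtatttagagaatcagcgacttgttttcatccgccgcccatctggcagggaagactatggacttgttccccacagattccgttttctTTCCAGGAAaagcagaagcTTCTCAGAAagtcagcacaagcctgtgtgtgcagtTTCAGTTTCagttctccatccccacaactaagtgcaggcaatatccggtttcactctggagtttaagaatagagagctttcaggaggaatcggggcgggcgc
Gbp3, chr3:142559794-142560093: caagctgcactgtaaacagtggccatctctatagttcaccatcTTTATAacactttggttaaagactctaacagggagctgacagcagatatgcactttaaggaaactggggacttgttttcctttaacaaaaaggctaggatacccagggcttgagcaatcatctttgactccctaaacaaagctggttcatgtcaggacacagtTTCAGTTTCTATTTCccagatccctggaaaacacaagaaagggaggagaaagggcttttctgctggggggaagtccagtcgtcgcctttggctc
Gbp2, chr3:142620413-142620712: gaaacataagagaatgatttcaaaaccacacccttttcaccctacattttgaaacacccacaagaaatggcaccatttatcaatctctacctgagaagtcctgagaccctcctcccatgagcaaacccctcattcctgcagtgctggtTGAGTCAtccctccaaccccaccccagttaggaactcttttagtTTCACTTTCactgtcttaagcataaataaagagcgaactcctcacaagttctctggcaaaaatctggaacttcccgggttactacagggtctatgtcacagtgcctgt

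The interferon response core was found in promoters of 4 of 4 genes, against 8.56% of 32851 promoters in the table. Its first base lay 164 bases upstream of the start of Gbp5, 52 bases upstream in Gbp7 and 58 bases upstream in Gbp2. The Gbp3 promoter held 2 overlapping matches, 44 and 38 bases upstream, and a second Gbp3 start in the table, at chr3:142560106-142560405, held no match to any of the 6 motifs. The gamma activated site was found in 2 of 4 genes, against 8.3% of all promoters. Gbp5 had it 245 and 52 bases upstream, and Gbp7 had it 106 and 87 bases upstream. The AP-1 letters stood once, 102 bases upstream of Gbp2 (5.2% of all promoters), and the TATA letters once, 207 bases upstream of Gbp3 (13.6%). Both matches were on the strand opposite to the gene. The exact NF-kB letters searched (1.68% of all promoters) and the PU.1 letters (3.2%) were in none of the windows shown. Other forms of these sites were not searched, so their absence is not shown. Gbp5 holds ggaaattccc and Gbp2 holds ggaacttccc, each longer by a T than the reverse complement of the NF-kB letters searched. A match describes these letters and is not a measured binding site. The peaks are in mm9 and the promoters in GRCm38.p6, and no coordinates were converted, so no region below is assigned to a gene. RefSeq lists Gbp5, Gbp7, Gbp3, Gbp2b and Gbp2 in this order.

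Per library, the lists held 54771 to 91610 peaks. Read numbers are unknown here, but the deposited fold and p-value allowed the summit coverage of each peak and its background to be recovered in whole and fractional reads. The lowest background in a library, a measure of depth, was 1.77 and 1.43 reads in KO and 2.35 and 2.51 reads in WT at 0 h. It was 2.79 and 3.04 reads in KO and 3.03 and 2.32 reads in WT at 2 h, and 3.35 and 2.17 reads in KO and 2.67 and 2.18 reads in WT at 6 h. KO 0 h replicate 2 was thus the shallowest library and KO 6 h replicate 1 the deepest. The weakest peak of a library had a summit of 8 to 12 reads, so DNA without a call may still be accessible at a level under that limit, most of all in the shallowest library. The peak lists carry no gene names, so markers of macrophages or of other cells, and the deletion of lincRNA-EPS, were not analysed here. Inside the lists labelled 2 h the peak names give 1 h, and that conflict was not settled, so these libraries may come from 1 h.

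At 6 h of LPS, more of the Gbp window was covered by peaks than at 0 h, in both genotypes. KO libraries had peaks over 8561 and 6706 bp at 0 h, 9724 and 10020 bp at 2 h, and 13538 and 12823 bp at 6 h. WT libraries had 9719 and 8844 bp at 0 h, 10119 and 9874 bp at 2 h, and 12854 and 12227 bp at 6 h. All 4 libraries at 6 h were above all 8 others. The covered length averaged 12860 ± 536 bp at 6 h and 8458 ± 1267 bp at 0 h (SD, n = 4 each), a difference of 4403 bp. An exact two-sided permutation test, with the labels of 0, 2 and 6 h exchanged within genotype, gave p = 0.0002469, the smallest it can give. With the libraries of 0 h and 6 h alone, the exact permutation test gave p = 0.05556, its smallest value. At 2 h the covered length averaged 9934 ± 173 bp (SD, n = 4), 1477 bp above 0 h, and every 2 h library was above every 0 h library. The exact test with the labels of all times exchanged gave p = 0.3506. Its arrangements also move the higher 6 h values into the 2 groups compared. This p therefore does not measure the spread of the 0 h and 2 h libraries alone. With the libraries of 0 h and 2 h alone, p was 0.05556 (exact permutation test, the smallest it can give). Background coverage was lowest in the KO libraries at 0 h, and with summits thinned to the shallowest library the 6 h difference was 3897 bp (p = 0.0002469, exact permutation test). Thinning dropped whole peaks and kept the deposited width of the rest. It therefore cannot show the covered length at equal depth, since any effect of depth on peak width remains. The window's share of all bases covered in a library came to 0.0299% ± 0.0020 at 6 h, against 0.0261% ± 0.0015 at 0 h (SD, n = 4 each; p = 0.02395, exact permutation test).

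The number of peaks in the window was also higher at 6 h than at 0 h, but no more so than the number of peaks in the genome. KO libraries had 16 and 15 peaks at 0 h, 16 and 18 at 2 h, and 24 and 22 at 6 h. WT libraries had 18 and 18 at 0 h, 18 and 17 at 2 h, and 21 and 21 at 6 h. On average there were 22 ± 1.41 at 6 h, against 16.75 ± 1.5 at 0 h (SD, n = 4 each), a difference of 5.25 (p = 0.003704, exact permutation test with the labels of all times exchanged). With the libraries of 0 h and 6 h alone, p was 0.05556 (exact permutation test). As a percentage of all peaks of the library, the window held 0.0261% ± 0.0014 at 6 h and 0.0264% ± 0.0013 at 0 h (SD, n = 4 each), and this difference did not pass the test (p = 0.8477, exact permutation test). The mean width of a peak in the window was 585 ± 19.9 bp at 6 h, against 503 ± 43.4 bp at 0 h (SD, n = 4 each).

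**Figure D1:**
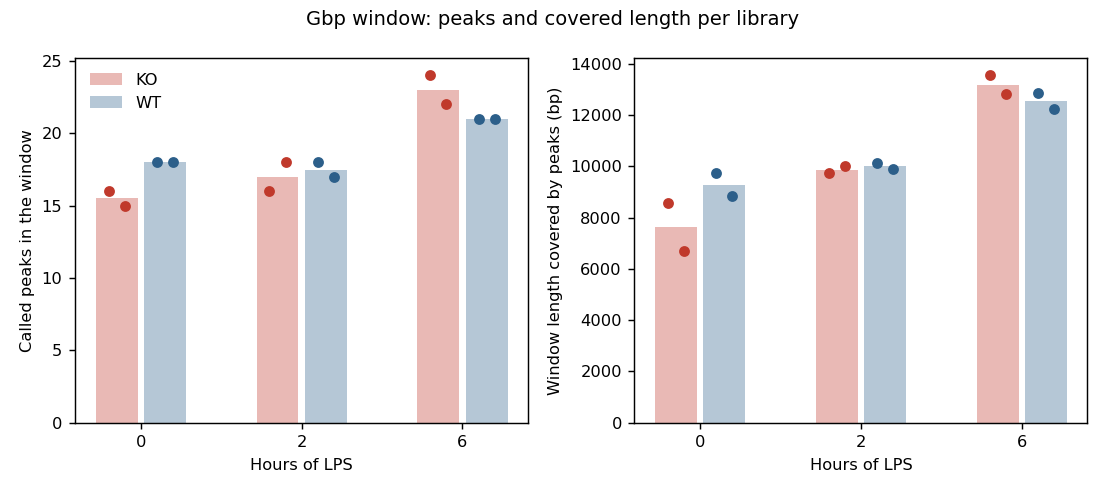
Called peaks in the Gbp window (left, number per library) and window length they cover (right, bp) at 0, 2 and 6 h of LPS. Points are libraries, KO in red left of WT in blue, and bars are means of 2 libraries. All 4 libraries at 6 h, between 12227 and 13538 bp, lie above the other 8 in covered length.

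All 12 libraries called 12 of the 27 regions (44.44%, against 37.15% of all regions in the genome), and 5 others appeared with LPS. The constant ones were regions 1, 3, 6, 7, 11, 14, 15, 16, 18, 19, 23 and 25, numbered from the low-coordinate end, and they were 543 to 1518 bp wide (median 733 bp). Another 3, regions 5, 24 and 26, were called in 9 to 11 libraries. Regions 5 and 26 were missed only in KO 0 h replicate 2, the shallowest library. Region 24 was missed in KO 0 h replicate 1, KO 6 h replicate 2 and WT 6 h replicate 2. The other 7, regions 2, 4, 10, 13, 17, 21 and 27, were called in 1 to 3 libraries and were narrow, at 206 to 442 bp. Both sets were named after their values were seen. Among these weak regions, region 10 was called at 6 h alone, in 3 of 4 libraries, with the authors' −log10 q between 3.76 and 4.12.

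**Figure D2:**
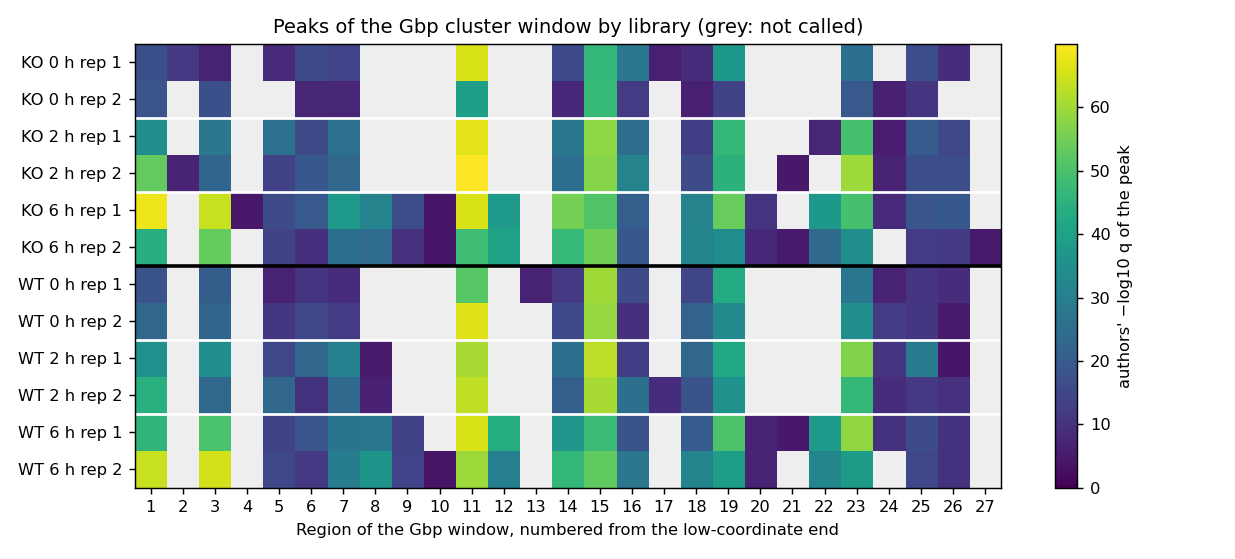
The authors' −log10 q (colour) of the strongest peak in each of the 27 regions of the Gbp window (columns, ordered by position), in each library (KO above WT, then by hours of LPS). Grey marks no call. Regions 8, 9, 12, 20 and 22 are grey in all 4 libraries at 0 h and coloured in all 4 at 6 h.

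Regions 8, 9, 12, 20 and 22 were gained by 6 h of LPS, meaning that all 4 libraries at 6 h called them and none of the 4 at 0 h did. This is 5 of 27 regions, against 5.54% of all regions. The count describes the window and has no test. No region of the window was lost by 6 h, against 0.127% of all regions, none was gained by 2 h (0.789% of all regions) and none was lost by 2 h (0.00434%). The stretches of 200 kb on either side had 2 gained by 6 h of 25 regions at lower coordinates and 2 of 15 at higher coordinates.

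Region 12 (chr3:142198582-142199320, mm9, 739 bp) was the strongest of the gained regions of the window by mean −log10 q and by mean fold over local background. Its authors' −log10 q was 37.87 and 40.30 in KO and 43.36 and 30.12 in WT at 6 h, and no library called it at 0 or 2 h. Its summits lay within 12 bp of each other in the 4 libraries. The summit coverage was 62 and 57 reads in KO and 63 and 46 reads in WT, well above the smallest summit of 9 to 12 reads that the same libraries called anywhere. Regions 22 and 8 had higher mean summits at 6 h, of 89.5 and 71 reads, than the 57 reads of region 12. The fold over local background, an authors' value for each peak, was 8.92 and 10.90 in KO and 10.63 and 9.40 in WT. Its mean of 9.96 ± 0.95 (SD, n = 4) compares with a median of 5.44 over the 6389 gained regions. Ordered by mean percentile of −log10 q within each 6 h list, region 12 stood at place 161 among those 6389.

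Region 22 (chr3:142281523-142282116, mm9, 594 bp) and region 8 (chr3:142161995-142162472, mm9, 478 bp) stood at places 237 and 314. Region 22 had −log10 q of 37.36 and 24.13 in KO and 37.95 and 32.19 in WT at 6 h, with summits of 103 and 71 reads in KO and 99 and 85 reads in WT. Region 8 had −log10 q of 31.25 and 24.42 in KO and 27.83 and 36.15 in WT at 6 h, with summits of 79 and 61 reads in KO and 69 and 75 reads in WT. In both, the values of the KO and WT libraries overlapped. Both were also the gained regions with calls at 2 h. Region 22 was called at 2 h in KO replicate 1 alone, with a summit of 37 reads and a −log10 q of 7.63. Region 8 was called at 2 h in both WT libraries, with 24 reads each and −log10 q of 5.02 and 6.38, and in neither KO library. These 2 h peaks were weak beside those at 6 h.

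Both regions lie beside constant ones. Region 22 ends 464 bp before the constant region 23, and region 8 starts 1389 bp after the constant region 7. Region 9 (chr3:142184273-142184679, mm9, 407 bp) follows region 8 after 21800 bp without a call, and was weaker. Its −log10 q at 6 h was 16.46 and 9.91 in KO and 13.49 and 14.20 in WT. Region 20 (chr3:142260797-142261233, mm9, 437 bp) was the weakest, with −log10 q of 10.52 and 7.72 in KO and 6.64 and 6.76 in WT. Its summits were 23 and 17 reads in KO and 17 and 15 reads in WT, and it stood at place 5228 of 6389. The smallest summits called anywhere in these libraries were 12 and 9 reads in KO and 10 and 10 reads in WT. Region 9 stood at place 2104. The groups of KO and WT libraries overlapped in −log10 q in region 9, while in region 20 both KO values lay above both WT values. The region 20 peaks stood at the 17.5 to 32.2 percentile of their own lists.

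**Figure D3:**
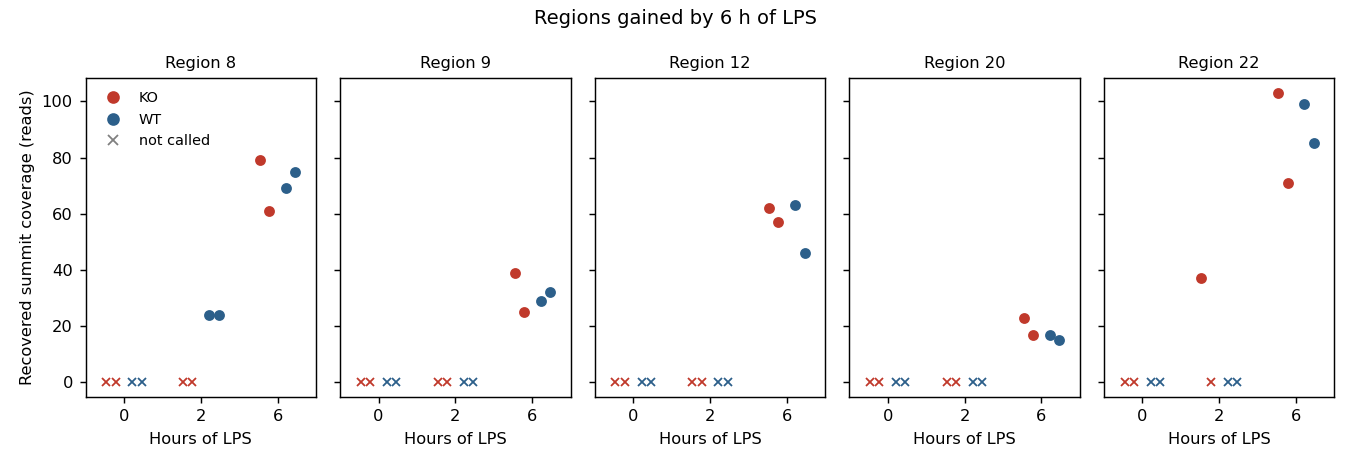
Recovered summit coverage (reads, linear axis from 0) of the 5 gained regions by hours of LPS. Circles are libraries that called the region, KO in red left of WT in blue, and crosses at 0 mark libraries with no call, not a coverage of 0. At 6 h the summits run from 15 reads in region 20 to 103 reads in region 22.

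Regions called in every library allow a comparison of strength across the whole window. For each library, −log10 q was ranked over the 42811 regions called in all 12 libraries, since ranks over 1 common set do not depend on how many peaks a library has. The ranks, as normal scores, were fitted with limma over all 42811 regions. Of the 12 constant regions, 5 rose in rank at 6 h against 0 h at a Benjamini-Hochberg adjusted p under 0.05 and 0 fell, against 10.7% rising and 10.8% falling in the genome. At an unadjusted p under 0.05, 6 rose and 0 fell. The median difference was 0.36 normal scores over the 12 and −0.04 over all regions tested.

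The 5 were regions 1, 3, 7, 14 and 18. Constant regions 6, 11, 15 and 16, which lie between them, did not pass, nor did 19, 23 and 25 at higher coordinates. Region 14 (chr3:142213063-142213762, mm9, 700 bp) had the lowest adjusted p of the 12. Its −log10 q was 15.75 and 8.08 in KO and 11.59 and 15.74 in WT at 0 h, 27.92 and 25.28 in KO and 25.76 and 21.27 in WT at 2 h, and 55.28 and 47.02 in KO and 36.48 and 46.31 in WT at 6 h. The 3 times did not overlap. As a percentile of the common regions, where 100 is the strongest, it stood at 72.2 ± 7.26 at 6 h and 19.3 ± 8.31 at 0 h (SD, n = 4 each), a difference of 1.495 ± 0.175 normal scores (SE; limma adjusted p = 0.00036). Its fold over local background also differed, at 12.25 and 12.55 in KO and 11.09 and 12.77 in WT at 6 h, against 8.17 and 6.18 in KO and 6.56 and 7.37 in WT at 0 h.

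At the low-coordinate end, regions 1 and 3 both ranked higher at 6 h than at 0 h. Region 1 (chr3:142132742-142133454, mm9, 713 bp) had −log10 q of 17.11 and 18.44 in KO and 17.78 and 23.02 in WT at 0 h, 34.81 and 53.16 in KO and 35.31 and 44.31 in WT at 2 h, and 68.31 and 44.09 in KO and 45.77 and 64.02 in WT at 6 h. Its rank percentile reached 80.8 ± 6.66 at 6 h, against 37.8 ± 9.69 at 0 h (SD, n = 4 each), with 61.9 ± 12.6 at 2 h, and the difference of 6 h from 0 h was 1.21 ± 0.21 normal scores (SE; limma adjusted p = 0.00292). Region 3 (chr3:142141188-142141775, mm9, 588 bp) stood at the 83.5 ± 4.31 percentile at 6 h, against 31.4 ± 18.8 at 0 h (SD, n = 4 each). At 2 h it stood at 39.5 ± 6.55 (SD, n = 4). The difference of 6 h from 0 h was 1.60 ± 0.29 normal scores (SE, limma adjusted p = 0.00339). The spread at 0 h came from KO 0 h replicate 1, in which region 3 stood at the 4.18 percentile, against 34.3 to 46.1 in the other 0 h libraries. In both regions every 6 h library ranked above every 0 h library.

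Region 7 (chr3:142159498-142160605, mm9, 1108 bp) was among the weaker constant regions before LPS. Its rank percentile was 24.1 and 11.1 in KO and 5.82 and 14.1 in WT at 0 h, 39.8 and 32.9 in KO and 41.2 and 36.6 in WT at 2 h, and 51.8 and 47.7 in KO and 46.3 and 48.5 in WT at 6 h. The 3 times did not overlap. The difference of 6 h from 0 h was 1.11 ± 0.17 normal scores (SE; limma adjusted p = 0.00135). The difference of 2 h from 0 h was 0.83 and missed the threshold (limma adjusted p = 0.0615). At 2 h against 0 h, 0 of the 12 regions passed in limma, with 4 higher at an unadjusted p under 0.05, against 0.488% higher, 0.0818% lower and 0.57% in either direction in the genome. By fold over local background, region 7 at 6 h (5.33 and 5.08 in KO, 4.90 and 5.44 in WT) overlapped with 0 h (5.38 and 4.39 in KO, 4.05 and 4.51 in WT), and with fold in place of −log10 q the adjusted p of its 6 h difference was 0.106 (limma on ranks of the fold).

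Region 18 (chr3:142240012-142240638, mm9, 627 bp) passed the test without a clean separation. Its rank percentile was 40.8 and 59.1 in KO and 31.2 and 52.3 in WT at 6 h, against 8.29 and 5.85 in KO and 19.0 and 39.6 in WT at 0 h. The groups overlapped through the WT libraries, in which the means were 41.7 ± 14.9 at 6 h and 29.3 ± 14.5 at 0 h (SD, n = 2 each). The difference over both genotypes was 0.91 ± 0.19 normal scores (SE; limma adjusted p = 0.00779).

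The other 7 constant regions did not pass the test at 6 h. Region 23 (chr3:142282581-142284068, mm9, 1488 bp), next to the gained region 22, ranked at 70.0 ± 10.5 at 6 h, against 54.2 ± 5.58 at 0 h (SD, n = 4 each), without overlap (limma adjusted p = 0.0961). Its mean at 2 h was 75.0 ± 4.21 (SD, n = 4), and the 2 h and 6 h libraries overlapped. Regions 11 (chr3:142192756-142194016, mm9, 1261 bp) and 15 (chr3:142222529-142224046, mm9, 1518 bp) were strong before LPS. Region 11 ranked at 84.8 ± 4.0 at 6 h and 86.9 ± 6.0 at 0 h, and region 15 at 77.9 ± 7.0 at 6 h and 85.7 ± 3.6 at 0 h (SD, n = 4 each). By fold over local background both fell at 6 h against 0 h. On the centred log2 scale they fell by 0.40 ± 0.09 in region 11 (SE; limma adjusted p = 0.0108) and by 0.35 ± 0.09 in region 15 (limma adjusted p = 0.0208). In this fit of the fold, 4 of the 12 regions rose (1, 3, 14 and 18) and 2 fell, against 8.45% rising and 9.56% falling in the genome. Regions 6, 16, 19 and 25 differed by −0.08 to 0.28 normal scores (lowest limma adjusted p 0.372).

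**Figure D4:**
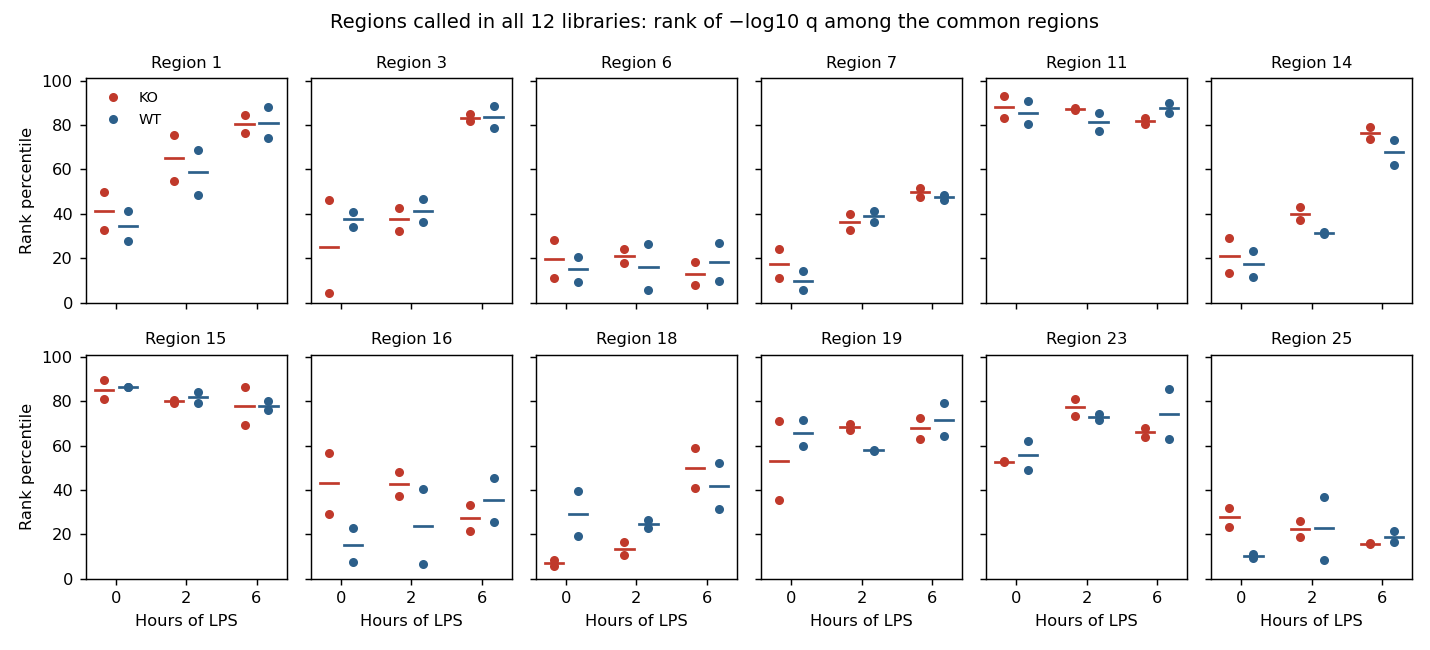
Rank percentile of −log10 q among the 42811 common regions (0 to 100, 100 strongest) for the 12 constant regions, by hours of LPS. Points are libraries and lines means of 2, KO in red left of WT in blue. In regions 1, 3, 7 and 14 every 6 h library lies above every 0 h library, while regions 11 and 15 stay high throughout.

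Around most of the constant regions, local background coverage was higher at 6 h. The peak caller sets each summit against the coverage of the surrounding DNA, so this background, divided by the lowest background of the library, describes how much more coverage the neighbourhood of a peak had than the least covered background of the same library. In bulk libraries, more cells with open DNA and more open DNA per cell cannot be told apart. This measure was chosen after its values were seen. Near region 23 it was 3.67 and 3.45 in KO and 3.02 and 3.18 in WT at 0 h, 4.05 and 3.48 in KO and 3.58 and 3.61 in WT at 2 h, and 6.00 and 6.68 in KO and 6.75 and 7.22 in WT at 6 h. Near region 7 it was 3.10 and 2.97 in KO and 2.83 and 2.87 in WT at 0 h, 3.07 and 2.92 in KO and 3.20 and 3.53 in WT at 2 h, and 5.31 and 5.88 in KO and 5.59 and 5.94 in WT at 6 h. In both places the 6 h libraries stood clear of all others, and the 0 and 2 h libraries lay close together.

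In a limma fit of its log2 over the 42811 regions, local background was higher at 6 h than at 0 h for 10 of the 12 constant regions and lower for 0, against 23% higher and 11.9% lower in the genome (Benjamini-Hochberg adjusted p under 0.05). The ratio of 6 h to 0 h was 2.00 near region 23 (adjusted p = 5.4711e-05), 1.93 near region 7 (adjusted p = 3.464e-05) and 1.76 to 1.77 near regions 1, 3 and 6. It was 1.498 near region 11 and 1.487 near region 14. The ratios near regions 15 and 16 were 1.23 and 1.24, and regions 19 and 25 did not pass (adjusted p = 0.5315 and 0.1531). The measure cannot go under 1, the lowest background itself. Region 18 stood at 1 in all 8 libraries of 0 and 2 h, so its ratio of 1.36 is a lower bound, and its small SE comes from that floor. Region 14 stood at 1 in 2 libraries at 0 h. Without region 18 the count is 9 regions. The median log2 difference was 0.58 over the 12 and 0.03 over all regions tested. Neighbouring regions share parts of the same background, which also includes the peaks themselves, so these 10 are not separate observations. At 2 h against 0 h only region 1 was higher, by 1.33-fold (adjusted p = 0.0431), against 0.696% of regions in the genome, and 0 were lower (0.0631% of regions). That call was lost when any library but WT 2 h replicate 1 was left out. Among the gained regions, local background at 6 h was 6.52 ± 0.49 times the lowest near region 22 and 4.47 ± 0.31 times near region 8 (SD, n = 4 each). It was 1.89 ± 0.27 times near region 9, 1.88 ± 0.08 times near region 12 and 1.05 ± 0.06 times near region 20 (SD, n = 4 each). None of the 5 has a value at 0 h, since no peak was called there.

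Summit coverage divided by the lowest background of the library was higher at 6 h at fewer regions than local background was. On that scale, centred on the library median, 6 of the 12 regions were higher and 0 lower at 6 h than at 0 h, against 13.9% higher and 18.9% lower in the genome. Region 3 rose 2.36-fold, region 14 2.22-fold, region 7 2.03-fold, region 1 2.01-fold, region 18 1.65-fold and region 23 1.56-fold (limma adjusted p at most 0.0013). Regions 6, 11, 15 and 16, whose local background was higher, did not pass at the summit, with ratios of 1.29, 1.04, 0.92 and 1.14 (limma adjusted p from 0.0509 to 0.719). At 2 h region 7 alone was higher, by 1.41-fold (limma adjusted p = 0.0362), against 1.2% of regions in the genome, and 0 were lower (0.166%). Thus region 23 was called by summit coverage and not by rank of −log10 q or by fold, and region 7 was called by coverage and by −log10 q but not by fold.

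**Figure D5:**
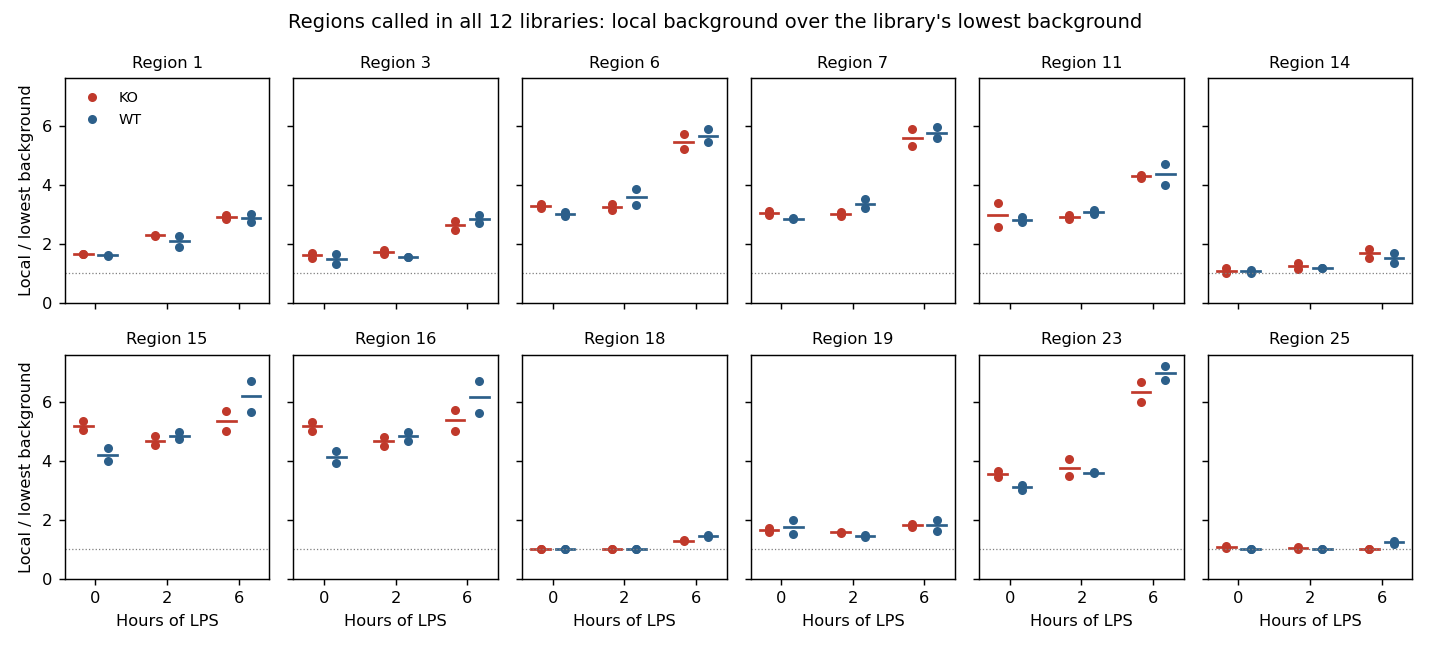
Local background of each constant region divided by the lowest background of the library (ratio, linear axis from 0, dotted line at 1), by hours of LPS. Points are libraries and lines means of 2, KO in red left of WT in blue. Near regions 6, 7 and 23 the 6 h libraries lie between 5.20 and 7.22, above all libraries at 0 and 2 h.

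No difference between KO and WT in the window passed a test, in covered length, peak number, rank or local background. Over all times, KO libraries had 10229 ± 2576 bp covered and WT libraries 10606 ± 1571 bp (SD, n = 6 each), a difference of −377.5 bp (p = 0.5278, exact permutation test with genotype labels exchanged within time). Leaving out 1 library at a time moved it between −686.7 bp (without KO 0 h replicate 1) and −68.33 bp (without KO 0 h replicate 2). They had 18.5 ± 3.67 peaks in KO and 18.83 ± 1.72 in WT (SD, n = 6 each; p = 0.8333, same exact test). The difference of 6 h from 0 h was larger in KO than in WT by 4.5 peaks and by 2288 bp. Of these the first gave p = 0.05556, the smallest value that its 36 exact arrangements allow, and the second p = 0.1111 (exact permutation test). At 0 h the KO libraries had a lower background coverage, of 1.43 and 1.77 reads, than the WT libraries, with 2.35 and 2.51 reads. With coverage thinned to the shallowest background, these became 2 peaks (p = 0.5556) and 1602 bp (p = 0.2222, exact permutation tests). With the lists trimmed to 54771 peaks each they were 0 peaks (p = 1) and 1086 bp (p = 0.2778, exact permutation tests). Both steps dropped whole peaks and kept the deposited width of the rest, so any effect of depth on width remains in these lengths. The difference between the changes in covered length was 1360 bp without KO 0 h replicate 2.

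No region was called in KO alone at 0, 2 or 6 h, meaning in 2 of 2 KO and 0 of 2 WT libraries, against 0.505%, 1.22% and 1.91% of all regions. Region 8 at 2 h was the 1 region called in WT alone, against 1.34% of all regions, and none was called in WT alone at 0 h (2.45%) or 6 h (1.2%). At 6 h region 8 was called in 2 of 2 libraries of each genotype. No region was called in 1 genotype alone at all times (0.00174% of regions for KO and 0.00868% for WT). Comparisons of 2 with 2 libraries have no test of these counts.

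In the limma fit of ranks, 0 of the 12 constant regions differed between KO and WT over all times, with 1 lower at an unadjusted p under 0.05, and the genome held 0.00234% higher and 0.00234% lower. Their differences ran from −0.37 to 0.45 normal scores, with 95% bounds from −0.76 to 0.97 (lowest adjusted p 0.677). Within 0 h, 2 h or 6 h, 0 regions passed, as did 0% of the genome. At an unadjusted p under 0.05 there were 1 higher and 1 lower at 0 h and none at 2 h or 6 h. The difference between the changes of KO and WT from 0 to 6 h passed for 0 regions, also with 0% in the genome. Region 18 alone had an unadjusted p under 0.05 there, and the 12 differences ran from −1.12 to 1.12 with 95% bounds from −2.39 to 1.97 (lowest adjusted p 0.788). Over all times, the bounds of KO minus WT lie below the 6 h differences of regions 1, 3, 7 and 14, while those of the difference between the changes reach past them. Local background gave 0 of 12 between KO and WT (0 at an unadjusted p under 0.05, limma), against 0.00467% higher and 0.0491% lower in the genome.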

How the data were processed

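Each library came with its own peak list, deposited by the authors. The tools were Bowtie2 2.1.0, Picard and MACS2, and the build mm9, per the submitters' processing notes. Not given in the sources used here are the caller settings, the handling of duplicates and the Tn5 offset correction. Duplicates left in would raise peak values, and an uncorrected offset would move borders by a few bases. The peak names show that calling was done library by library. The deposited fold is a ratio of the summit to the local background, and the deposited lists also give −log10 p-values, −log10 q-values and a score. They served for ranking within a list and for recovering coverage. Solving fold = (coverage + 1)/(background + 1) with the Poisson p-value gave whole-number coverage for 100% of peaks, with a tolerance of 0.001 in log10 p.

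Regions were chains of peaks overlapping by at least 1 bp. The members of the cluster and the motif list were chosen with earlier results of these data known. Regions were named where called in all 12 libraries, gained or lost with LPS, called in 1 genotype alone or past the rank fit's threshold. Those called less often are given by counts. Totals were compared by exact permutation over all 12 libraries, and ranks by limma 3.58.1 in R 4.3.3 with 1 mean per group and Benjamini-Hochberg adjustment. Other steps used Python 3.11.15, numpy 2.4.6, pandas 2.3.3, scipy 1.17.1 and matplotlib 3.10.9. The chaining, the permutation tests and the rank fit were tested on simulated data. Alternatives were a −log10 q of at least 5, thinning to the shallowest background, 54771 peaks per library, shares of the library total, a window wider by 50 kb on each side, chaining at 50% overlap, ranks of the fold, the centred log2 fold, a replicate block and leaving out each library. Summit coverage and local background over the lowest background were added after the data were seen. Deviations of same-numbered libraries in the ranks correlated by −0.013 to 0.027 over 15 pairs of groups, so the ranks showed no shared deviation by replicate number. Whether same-numbered libraries shared an animal or a preparation cannot be read from this.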

Additional observations from a re-analysis of the deposited data

Results flagged for a closer look

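Region 25 (chr3:142293258-142293859, mm9) had 1 library apart from the others of its time at 6 h. Its rank percentile was 21.5 in WT 6 h replicate 1, against 15.5 to 16.5 in the other 3 libraries. Of the 42 groups of 4 libraries tested by Dixon's criterion this was the 1 that passed, and chance gives about 1 in 20. For LPS at 6 h against 0 h the region did not pass the rank fit (limma adjusted p = 0.982).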

How the results depend on the processing

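Covered length and peak number kept their direction at 6 h against 0 h under the other alternatives, with 3897 to 5222 bp and 3.5 to 8.25 peaks, except as a percentage of the library's own peaks, where the peak number differed by −0.0002661 (p = 0.8477, exact permutation). On that scale 2 h minus 0 h was −0.002957 for peaks (p = 0.01877) and −0.0005051 for covered length (p = 0.802), and KO minus WT was 9.699e-05 for peaks (p = 0.9074, exact permutation). Thinned to the shallowest background, 2 h differed from 0 h by −0.25 peaks (p = 0.9437, exact permutation). These tests of 2 h against 0 h also exchanged the 6 h labels, so their p does not measure the 0 h and 2 h spread alone. With the libraries of 0 h and 6 h alone, 5.25 peaks and 4403 bp gave p = 0.05556, the smallest of that exact test. Leaving out 1 library gave 4.75 to 5.75 peaks and 3939 to 4867 bp at 6 h, 0 to 1 peaks at 2 h, and −0.6667 to 0 peaks and −686.7 to −68.33 bp between genotypes. The difference between the changes of KO and WT was 3.5 to 5.5 peaks and 1360 to 3216 bp. It gave 5 to 6 regions gained by 6 h, 0 to 2 called in KO alone at 0 h, 0 to 2 in WT alone at 0 h, 0 to 2 in KO alone at 2 h, 1 to 2 in WT alone at 2 h and 0 to 1 in KO alone at 6 h. In the rank fit it gave 5 to 6 regions at 6 h and 0 to 1 at 2 h (1 without KO 0 h replicate 1), and in the local background fit 9 to 10 at 6 h and 0 to 1 at 2 h. Thinning and equal peak numbers left 4 regions gained by 6 h, and chaining at 50% overlap gave 1 region in WT alone at 0 h. Summit coverage gave 1 region at 2 h. With the replicate block, peaks at 6 h gave p = 0.01235 and covered length p = 0.001543 (exact permutation), the local background fit called 0 regions at 2 h, and no other call changed. The cause of these changes was not tested. Region 7 missed the threshold by rank of fold (0.4348, limma adjusted p = 0.106) and by log2 fold (0.199, limma adjusted p = 0.1274). Depth limits absence of calls most in KO 0 h replicate 2.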
